A study of Mus musculus with 2 samples.

Results

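The genes described here encode the subunits of the mitochondrial respiratory chain and of the ATP synthase, taken from a comparison of the distal with the proximal side of mouse limb-mesenchymal organoids. Members were chosen by gene symbol, and 84 of the 13916 protein-coding genes listed in the authors' deposited table matched. They comprised 36 genes of complex I, 4 of complex II, 9 of complex III, 14 of complex IV and 17 of complex V, together with Sdhaf1 to Sdhaf4, the 4 assembly factors of complex II, whose symbols fall under the same pattern. All 84 lie on nuclear chromosomes, and genes of the mitochondrial genome were not analysed here. Ndufa4 was counted in complex IV, where its protein resides, and Cox7a2l, which joins complexes into larger assemblies, was counted there too by its name.

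Limb mesenchymal cells from mouse embryos of the Slc:ICR strain were cultured as organoids in medium that held Fgf8b and Wnt3a for 48 h. On day 2 the study froze 5 of these, which came from 4 cultures. In 10 µm sections, ultraviolet light was shone on a chosen distal or proximal area, so that only cDNA made there could be amplified (photo-isolation chemistry). The distal group was 1 library of 5 pooled barcoded regions and the proximal group was 1 library of 5 such regions, and both shared the strain, the medium and the day. Side and library are therefore the same split and cannot be told apart, the standard errors below measure only the spread between regions as the authors fitted it, and fewer cells of a type cannot be told from less RNA per cell.

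The respiratory chain moves electrons from NADH (complex I) and succinate (complex II) through ubiquinone to complex III, cytochrome c and complex IV, which reduces oxygen. Complexes I, III and IV pump protons across the inner mitochondrial membrane, and complex V, the ATP synthase, uses the gradient to make ATP. The subunits assemble in fixed ratios, and complex II is also an enzyme of the tricarboxylic acid cycle. Promoters of nuclear genes of the chain are known for sites of the factors NRF1, GABPA (an ETS protein) and YY1.

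Depth limited what could be seen. Size factors read from the lowest means in the authors' deposited table summed to 2.93 over the distal regions and 9.65 over the proximal regions, or about 46991 to 118978 counts in a distal region against 214774 to 345649 in a proximal one. Limb mesenchyme markers were present on both sides, and all 9 were analysed. Their summed level was 924 normalized counts per region in distal and 714 in proximal, and 5 were called in the deposited table, 3 towards distal and 2 towards proximal. Markers of surface ectoderm (4 of 7 analysed) and of endothelium (3 of 4) summed to levels of 0.992 and 1.48 in distal and 0.619 and 0.618 in proximal, and the 1 of 6 blood markers analysed, Ptprc, had 1 distal and 10 proximal counts. Cartilage markers (4 of 5 analysed) summed to 1053 in distal and 681 in proximal, and 1 was called in the authors' deposited table, towards distal, the side of the called members. That was Sox9, and Acan lay towards proximal at an unadjusted p of 0.0345 in the authors' deposited table. Col2a1 was not called (log2 change 0.57 ± 0.48 (SE), adjusted p = 0.991 in the authors' deposited table). Of the 3 cartilage markers with a mean of at least 10, 2 lay above 0 and 1 below it. Most of each cartilage sum came from 1 marker, with a mean of 682 over all regions. The muscle markers were higher in proximal. Their summed level over 7 of 8 markers was 11.5 in distal and 112 in proximal, and in the authors' deposited table all 7 were higher in proximal at an unadjusted p under 0.05, 4 of them also after adjustment. What part cartilage or muscle cells have in the values below was not tested.

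Of the nuclear genes of the respiratory chain and ATP synthase, 2 differed between the sides past the threshold. Sdhd, a membrane anchor of complex II, and Ndufs5, an accessory subunit of complex I, were higher in distal. Genes are called here where the authors' deposited table, laid out as DESeq2 writes one, has an adjusted p under 0.05. By this measure 2 of the 84 members were called, against 0.977% of all listed genes. Both were higher in distal, the side to which 0.395% of listed genes were called, and none was higher in proximal, with 0.582% of listed genes. An unadjusted p under 0.05 was found for 6 members (6.07% of all listed genes), 3 of them towards distal (2.56%) and 3 towards proximal (3.51%). At an adjusted p under 0.01 the same 2 members were called, with 0.64% of listed genes. Among the 50 members with a mean of at least 10, Sdhd alone was called, while 3.03% of all listed genes at that depth were called and 1.36% were called higher in distal.

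The upstream sequences of the 2 called genes are shown because no other member passed the adjusted threshold. They come from the RefSeq windows of build GRCm38.p6 and are written 5′ to 3′ on the gene's own strand, with matches to the motifs named below in capitals. For Sdhd only the 60 bases at chr9:50603850-50603909 (minus strand) are given, between its RefSeq start and the start of Timm8b, which runs the other way from there. For Ndufs5 the 250 bases before the start are given, chr4:123718187-123718436 (minus strand).
Sdhd: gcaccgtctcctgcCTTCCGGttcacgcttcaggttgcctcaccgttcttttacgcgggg
Ndufs5: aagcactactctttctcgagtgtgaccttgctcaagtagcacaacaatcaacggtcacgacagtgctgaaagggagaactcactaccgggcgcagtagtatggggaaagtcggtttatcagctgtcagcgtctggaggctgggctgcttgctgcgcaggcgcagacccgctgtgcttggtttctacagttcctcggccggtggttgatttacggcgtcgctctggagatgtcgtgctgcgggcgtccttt
The capitals in the Sdhd stretch are the reverse complement of CCGGAAG, the letters searched for an ETS site, and begin 46 bases before the start. No match to the 3 motifs searched was found in the Ndufs5 stretch. Windows from 250 bases before to 50 after the start were searched on both strands and were found for 70 of the 84 members. CCGGAAG was in 19 of the 70 (27.1%), against 16.6% of 10989 genes of the table and 9.14% of all 27025 windows. The NRF1 palindrome, GCGCA followed by its reverse complement, was in 5 member windows (7.14%, against 1.94% and 0.981%) and the YY1 letters AAGATGGCG were in 6 (8.57%, against 2.89% and 1.48%). These are matches of letters, not measured binding.

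In complex II, Sdhd departed from its 3 partner subunits. The complex has a flavoprotein (Sdha), an iron-sulphur protein (Sdhb) and a pair of membrane anchors (Sdhc and Sdhd) that hold ubiquinone. Levels in normalized counts per region, computed from the deposited mean and log2 change, were 31.8 in distal and 30.7 in proximal for Sdha. Sdhb stood at 14.7 and 14.4, and Sdhc at 40.5 and 35.5. Sdhd stood at 29.8 in distal and 11.6 in proximal, from about 87.3 and 112 counts.

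Sdhd (ENSMUSG00000000171, chr9:50596357-50603812, GENCODE M21) was called with a log2 change, distal over proximal, of 1.37 ± 0.30 (SE) in the authors' deposited table (adjusted p = 0.000993). That is a 2.58-fold higher level in distal, with a 95% interval of 1.72 to 3.86-fold. The authors' deposited table gives Sdha 0.05, Sdhb 0.03 and Sdhc 0.19 on the same scale, and none of the 3 was called. The 95% intervals were -0.38 to 0.48 for Sdha, -0.63 to 0.69 for Sdhb and -0.22 to 0.61 for Sdhc. None of these 3 intervals overlapped that of Sdhd, which ran from 0.78 to 1.95 on the log2 scale. Sdhd was singled out by its call from these same values, and no difference between genes was tested. No near-identical copy of the Sdhd transcript end and no overlapping gene was found. Timm8b, named because of its position, which imports proteins into mitochondria and starts 97 bases from the Sdhd gene, was not called (log2 change -0.56, adjusted p = 0.991 in the authors' deposited table).

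The 4 assembly factors of complex II did not pass the test. In the authors' deposited table they ranged on the log2 scale from -1.07 for Sdhaf3 to 0.42 for Sdhaf1. Sdhaf2, which attaches the flavin to Sdha and was the only one with a mean of at least 10, stood at levels of 10.3 in distal and 11.4 in proximal. Sdhaf4 stood at 7.24 and 8.28.

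**Figure D1:**
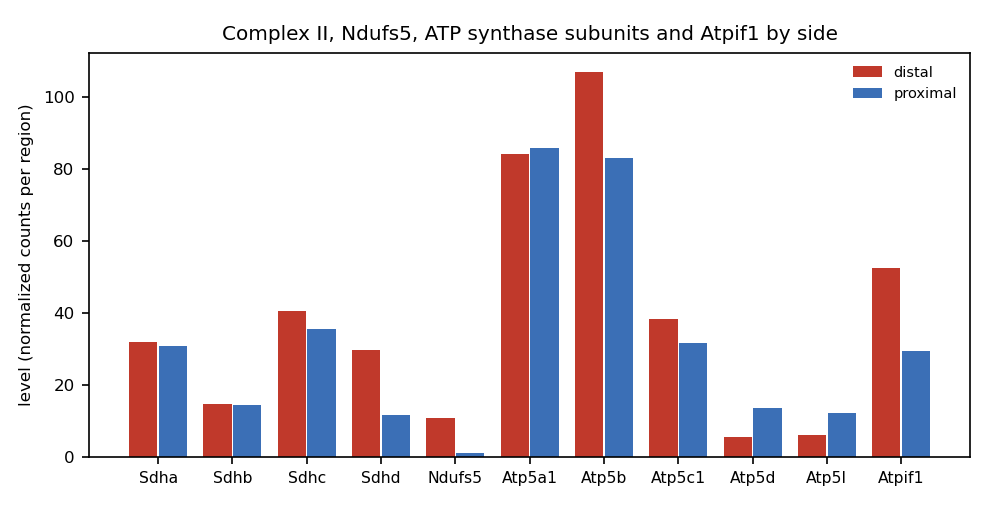
Bars give the distal (red) and proximal (blue) levels in normalized counts per region, from 0, for the subunits of complex II, Ndufs5, 5 subunits of complex V and Atpif1. There are no error bars because the table holds 1 mean per gene. Sdhd stands at 29.8 against 11.6, while Sdha, Sdhb and Sdhc have bars of nearly equal height.

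In complex I, the call was Ndufs5 (ENSMUSG00000028648, chr4:123712710-123718202, GENCODE M21). Its level was 10.8 in distal and 1.03 in proximal, from about 31.7 and 9.92 counts. It was called at 3.40 ± 0.61 (SE) on the log2 scale in the authors' deposited table (adjusted p = 1.21e-05), which is a 10.5-fold higher level with a 95% interval of 4.57 to 24.2-fold. The end of its transcript matches a processed pseudogene, BC002163, at 99.3% identity over 274 bases. Reads of the pair could have been divided by the counting, so the value is uncertain. Sdhd had no such copy.

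The other 35 genes of complex I were not called. Of the 18 at a mean of 10 or more, 11 lay above 0 and 7 below it on the log2 scale of the authors' deposited table. Their median was 0.12 and their range ran from -0.35 to 0.45. Ndufc2, a membrane arm subunit, had the highest mean of the complex and stood at 48.4 in distal and 41.1 in proximal. Ndufs1, the largest iron-sulphur subunit, stood at 35.1 and 36.6, and its 95% interval of -0.47 to 0.34 on the log2 scale left room for less than a 1.5-fold difference either way. Ndufv3 and Ndufa10 had the largest differences of the complex at that depth, 0.45 and 0.39 on the log2 scale of the authors' deposited table, and both 95% intervals included 0.

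Ndufb11, an accessory subunit encoded on the X chromosome, had the only other unadjusted p under 0.05 in complex I. It stood at 5.06 in distal and 9.71 in proximal (log2 change -0.94, adjusted p = 0.874 in the authors' deposited table). A pseudogene matches its transcript end at 98.1% identity, and Rbm10 lies on the other strand of the same locus.

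Complex III carries electrons from ubiquinone to cytochrome c. None of its 9 genes was called. The 5 genes at a mean of 10 or more all lay above 0 in the authors' deposited table, from 0.04 to 0.37 on the log2 scale, and none had an unadjusted p under 0.05. Some of these 5 lay below the median of all listed genes (0.07). Uqcrh, the hinge protein, stood at 35.3 in distal and 27.2 in proximal, Uqcr10 at 17.7 and 14.5, and Uqcrfs1, the Rieske iron-sulphur protein, at 37.6 and 34.1. The interval for Uqcrfs1 ran from -0.27 to 0.56 on the log2 scale.

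Complex IV is cytochrome c oxidase. Its 9 genes at a mean of 10 or more ranged from -0.07 to 0.22 on the log2 scale of the authors' deposited table, around a median of 0.10. None of the 14 genes of the complex was called or had an unadjusted p under 0.05. Cox7c had the highest mean and stood at 84.3 in distal and 73.8 in proximal. Ndufa4 stood at 65.6 and 61.3, with a 95% interval of -0.22 to 0.41 on the log2 scale.

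Several subunits of complex IV exist as isoforms made from separate genes. Cox6a1 and Cox7a2, the widely expressed forms, stood at 47.9 and 42.0 in distal and at 44.1 and 36.1 in proximal. Their heart and skeletal muscle forms, Cox6a2 and Cox7a1, had few counts. Counts recovered for single regions gave Cox6a2 0 counts in distal and 4 in proximal, and Cox7a1 0 in distal and 1 in proximal, so no difference was detectable at this depth.

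Cox6b1, another widely expressed form, stood at 11.9 in distal and 12.5 in proximal, while Cox6b2, known from testis, had 5 distal and 11 proximal counts. Their means in the authors' deposited table were 12.2 and 1.34. Per kilobase of the longest coding transcript these correspond to 19.8 normalized counts for Cox6b1 and 2.29 for Cox6b2. Whether counts follow transcript length in these libraries was not tested. Cox4i1 stood at 32.5 and 29.4, Cox5b at 27.4 and 28.5, Cox7b at 55.8 and 54.8, Cox7a2l at 9.04 and 9.68, and Cox8a at 6.54 and 4.19. None of these was called, and the sign of Cox7b turned when log2 changes were centred on the median of all genes.

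**Figure D2:**
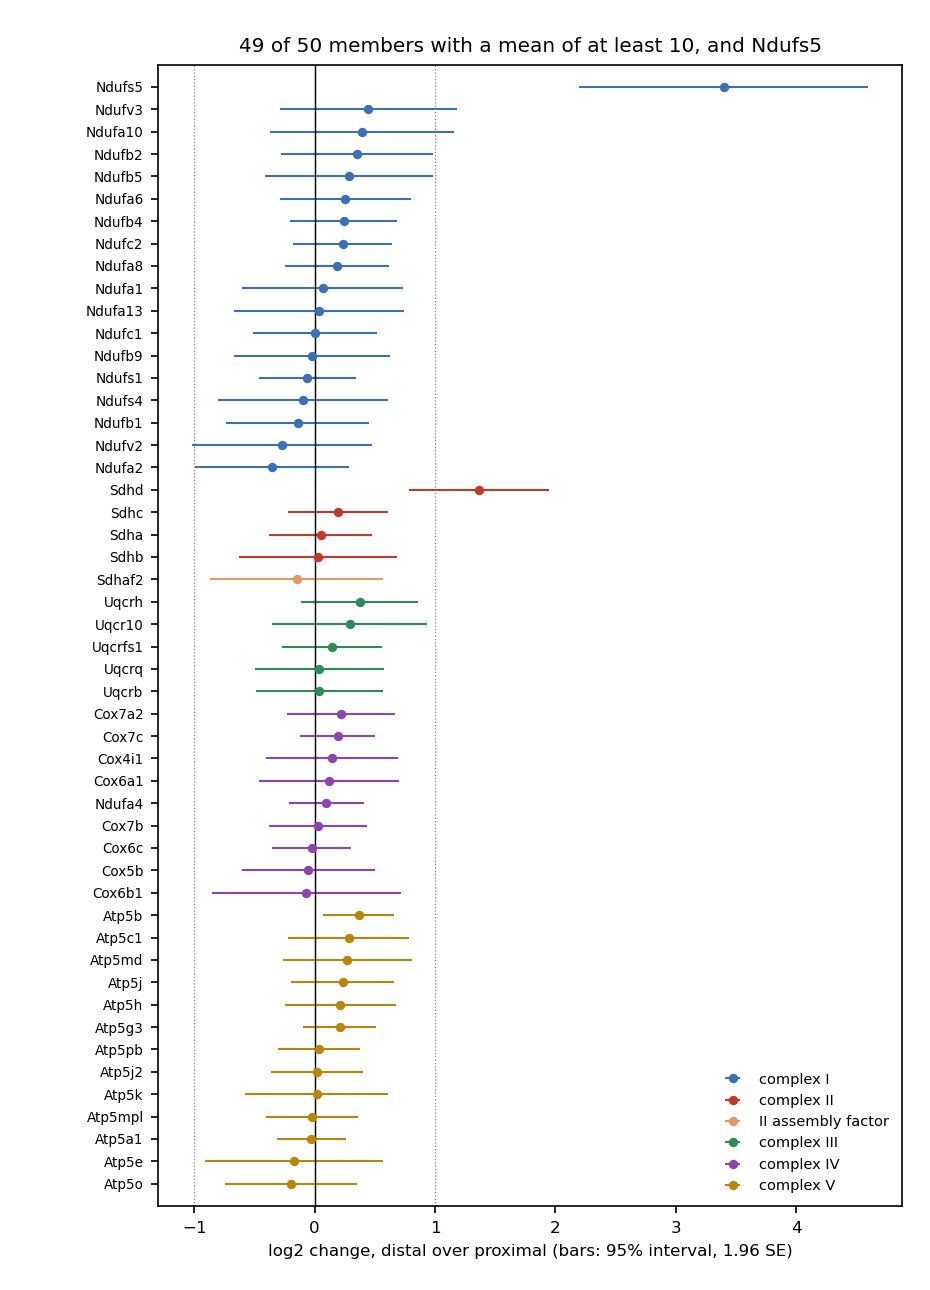
Points give the log2 change of distal over proximal in the authors' deposited table and bars the 95% interval, for 49 of the 50 members with a mean of at least 10 and for Ndufs5, coloured by complex. Dotted lines mark 2-fold differences. The points for Sdhd (1.37) and Ndufs5 (3.40) stand to the right of the others, which lie between -0.35 and 0.45.

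Complex V makes ATP with a catalytic head of alpha (Atp5a1) and beta (Atp5b) subunits that a central stalk (Atp5c1, Atp5d, Atp5e) turns against. None of its 17 genes was called, and 3 had an unadjusted p under 0.05. Atp5b had one of the smallest standard errors of all members. It stood at 107 in distal and 83.2 in proximal, a log2 difference of 0.37 ± 0.15 (SE) that was not called in the authors' deposited table (adjusted p = 0.516). Atp5a1, named here after its values were seen because it pairs with Atp5b, stood at 84.3 and 85.8. Its value of -0.03 in the authors' deposited table had a 95% interval from -0.31 to 0.26 on the log2 scale.

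Towards proximal, Atp5d, the delta subunit of the central stalk, stood at 5.62 in distal and 13.6 in proximal. In the authors' deposited table its log2 change was -1.27 ± 0.45 (SE), at an unadjusted p of 0.0051. Its adjusted p of 0.275 was the lowest in the authors' deposited table among members that were not called. Cbarp overlaps it on the other strand, and whether counting used strand is not given in the sources used here. Atp5l, the membrane subunit g, stood at 6.16 in distal and 12.2 in proximal (log2 change -0.99, adjusted p = 0.586 in the authors' deposited table). It has 2 near-identical copies, the closest at 98.7% identity. Atp5c1 stood at 38.4 and 31.5.

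The ring of c subunits, which turns as protons pass, is encoded by the genes Atp5g1, Atp5g2 and Atp5g3. Atp5g3 stood at 108 in distal and 94.0 in proximal, the highest mean of all members, with a 95% interval from -0.10 to 0.51 on the log2 scale. Atp5g1 had 5 distal and 13 proximal counts, and Atp5g2 had 4 distal and 12 proximal counts. The 3 genes had means of 101 (Atp5g3), 1.28 (Atp5g2) and 1.40 (Atp5g1). Per kilobase of the longest coding transcript these were 140, 1.70 and 0.297, with a length of 4715 bases for Atp5g1 and 753 for Atp5g2. Whether counts follow that length was not tested. The transcript end of Atp5g2 matches a processed pseudogene at 100% identity.

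**Figure D3:**
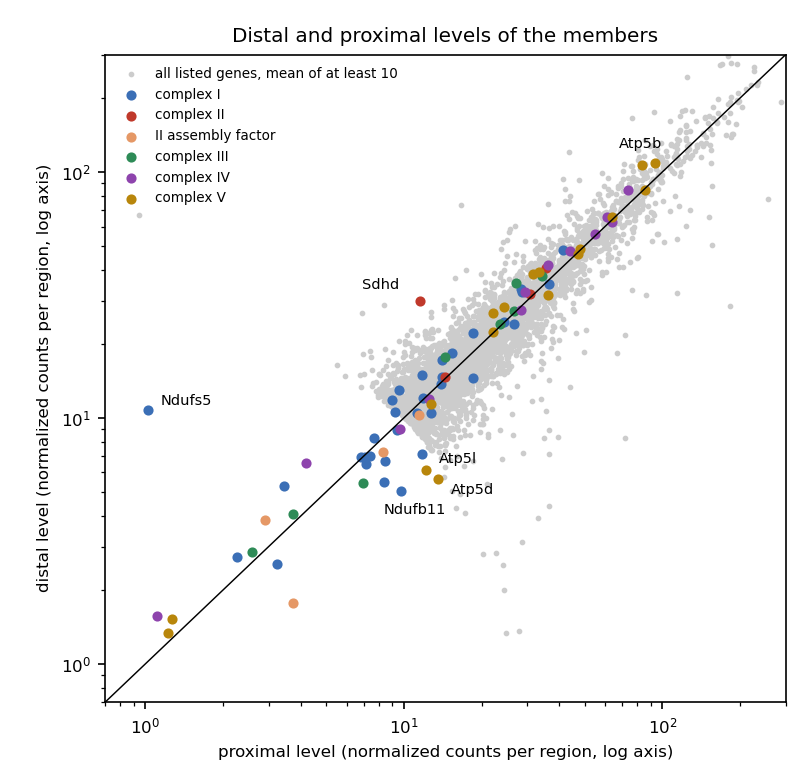
Each coloured point is a member with more than 3 computed distal counts, at its proximal (x) and distal (y) level in normalized counts per region on log axes, over all listed genes with a mean of at least 10 in grey. The line marks equal levels. Members lie along the line from about 1 to over 100, with Sdhd and Ndufs5 above it and Atp5d, Atp5l and Ndufb11 below it.

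Across complexes, the better measured members lay close to 0, and how many lay above 0 varied with the centre chosen. Of the 50 members at a mean of 10 or more, 35 (70%) were above 0 in the authors' deposited table, as were 50.6% of the 3757 listed genes at that depth. With log2 changes centred on the median of all 13916 genes (0.07), 25 of the 50 were above 0, and with the median of the genes at that depth as the centre 35 were. With the median of the genes above the median mean (-0.0179) as the centre, 36 were. The median log2 change was 0.08 for the members and 0.005 for all genes at that depth. The median of its absolute size was 0.16 and 0.21. An unadjusted p under 0.05 was found for 2 of the 50 members (4.00%), and for 12.0% of all genes at that depth. These counts and medians describe the list, and no test of the list was made.

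Bounds on the differences were tight for most of these genes. For 46 of the 50 members (92.0%) the 95% interval lay within a 2-fold difference either way, as it did for 73.6% of all genes at that depth. It lay within 1.5-fold for 15 of the 50 (30%), and for 18.5% of all. The 50 members were deeper than that set, with median levels of 29.1 in distal and 26.9 in proximal. For all genes with a mean of at least 10 these were 19.9 and 20.1. What part depth has in the narrower intervals was not tested. By complex, the 2-fold bound held for 15 of 18 genes of complex I, 3 of 4 of complex II, 5 of 5 of complex III, 9 of 9 of complex IV and 13 of 13 of complex V. Median log2 changes by complex were 0.12 for I, 0.12 for II, 0.14 for III, 0.10 for IV and 0.04 for V.

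**Figure D4:**
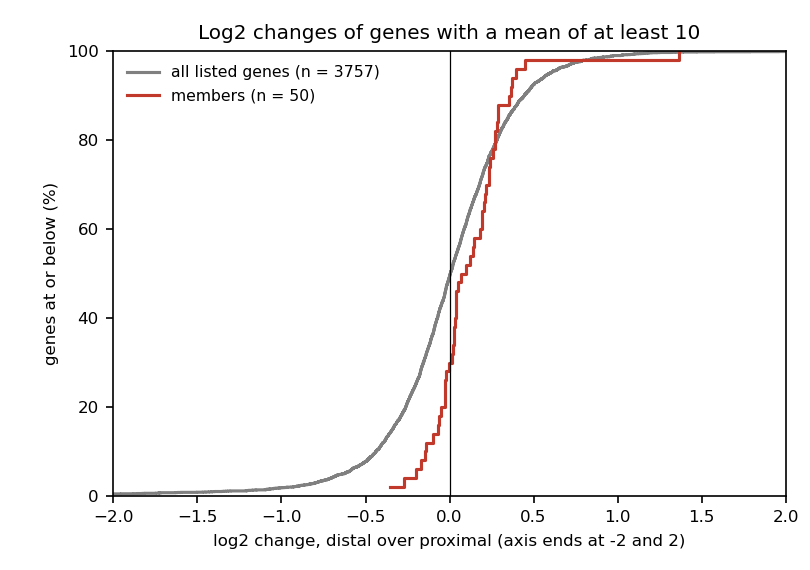
Cumulative share of genes (y, in percent) at or below each log2 change (x) in the authors' deposited table, for the 50 members (red) and all 3757 listed genes (grey) with a mean of at least 10. The axis ends at -2 and 2, which leaves some listed genes out of view. The red line is steeper and lies to the right over its lower part, with medians of 0.08 and 0.005.

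The low members carried few counts. In all, 34 members had a mean under 10, and 9 had a mean up to 1.5, for which single region counts were recovered. Among the latter, Ndufs8 had 1 distal and 13 proximal counts, Ndufb7 had 2 and 10, Ndufb6 had 2 and 3, and Uqcrc2, a core protein of complex III, had 1 and 3. The authors' deposited table gives such genes log2 changes whose sign need not follow the counts, as for Cox7a1 with a log2 change of 1.19 and its only count in a proximal region. No direction is read from these 9 genes. Levels per kilobase of the longest coding transcript varied widely between subunits of the same complex, though whether counts follow length was not tested. In complex III they ran from 0.154 for Uqcrc2 to 57.1 for Uqcrh. The means of these 2 genes were 0.292 and 31.2. Neither of the 2, chosen after their values were seen, has a copy. On the other strand, Pdzd9 overlaps Uqcrc2 and Gm12854 overlaps Uqcrh.

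Of the other genes of the pathway, the inhibitor of the ATP synthase was called. Atpif1 (ENSMUSG00000054428, chromosome 4) encodes the factor that binds the catalytic head and blocks ATP breakdown. It stood at 52.5 in distal and 29.4 in proximal, from about 154 and 284 counts. The authors' deposited table gives 0.83 ± 0.22 (SE) on the log2 scale (adjusted p = 0.0192). The level was 1.78-fold higher in distal, with a 95% interval of 1.32 to 2.40-fold. No copy of its transcript end was found, and the predicted gene Gm12999 overlaps it on the other strand. Its adjusted p missed a threshold of 0.01.

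Atpif1 was the only call among 15 analysed electron carriers and related genes. Cytochrome c (Cycs), which links complexes III and IV, stood at 16.4 in distal and 9.10 in proximal and was not called (log2 change 0.84, unadjusted p = 0.00896, adjusted p = 0.38 in the authors' deposited table). Further lists held 48 assembly factors, Sdhaf1 to Sdhaf4 among them, and 18 genes of the tricarboxylic acid cycle and pyruvate dehydrogenase. Others held 16 genes of mitochondrial transcription and biogenesis, 7 carriers and channels, ATP export included, and 76 mitochondrial ribosomal protein genes. None of these genes was called in the authors' deposited table, where 0.977% of all listed genes were. At an unadjusted p under 0.05 these 5 lists held 0, 1, 1, 1 and 2 genes, with 6.07% of all listed genes. The gene of the second list, Dlat of pyruvate dehydrogenase, was higher in proximal (3.51% of all listed genes). The others were higher in distal (2.56%). At a mean of 10 or more, the lists held 8, 15, 5, 5 and 17 genes, with median log2 changes of -0.14, 0.003, 0.02, -0.11 and 0.03.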

How the data were processed

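Photo-isolation libraries were measured on 1 distal and 1 proximal sample. Per the file headers, the authors deposited a results table of distal against proximal, laid out as DESeq2 writes one, with 1 line per protein-coding gene. Its mean is a signal in normalized counts averaged by the authors over all regions. The deposited log2 change comes with a standard error from the authors' fit. The deposited statistic is a score equal to their ratio. The deposited p-value and adjusted p-value come from that score. Builds mm10 and GRCm38 are named per the submitters' processing notes. The aligner and counter are not given in the sources used here, nor is the set of features over which p-values were adjusted.

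Computed here were side levels from the mean and log2 change, 95% normal intervals, and size factors from the lowest means, where 1 count in 1 region gives a repeated step shared by at least 20 genes. Region counts were recovered where 1 set of counts matched the mean, for 4936 of 5031 genes with a mean up to 1.5. Side counts of 139 such genes had median errors of 0.433 (distal) and 0.335 (proximal) counts. Copies were searched with BLAST 2.17.0 in GENCODE M21 transcripts, as matches of the last 300 bases over at least 200 bases at 95% identity. Scripts were tested on simulated data.

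Members and lists were chosen with earlier results of these data known. Named are members with a p under 0.05, isoform sets, complex II, and in each complex the 2 highest means and the 2 largest changes with a mean of at least 10. Other genes named were chosen after their values were seen. The values of 1 member are not reported here by name, though it is included in the counts and medians.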

Additional observations from a re-analysis of the deposited data

How the results depend on the processing

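The number of called members stayed at 2, Sdhd and Ndufs5, with an adjusted p under 0.01 or under 0.1, a log2 change of at least 1, both centrings, adjustment over the listed genes and removal of Sdhaf1 to Sdhaf4. It was 1, Sdhd, in distal and in all, when only genes with a mean of at least 10 were adjusted, since Ndufs5 is then not tested (3.97% of all genes tested were called under that adjustment), and when members with a copy were left out, which removes Ndufs5. No alternative gave a call higher in proximal, where the authors' deposited table held 3 members at an unadjusted p under 0.05. The median log2 change of complex I was 0.0097 with no filter on the mean and 0.020 with a mean of at least 1. For complex II it was 0.41 as a mean and 0.33 weighted by precision, both of which take in Sdhd. For complex III it was 0.26 with a mean of at least 30. The cause was not tested for complexes I and III. Of the remaining summary values under an alternative, 65 were within these limits (0.1 on the log2 scale for a median). Among 36 named genes, centring on the median of all genes turned the sign of Cox7b (-0.041), Sdha (-0.017) and Sdhb (-0.038). Of 268 values of these 36 genes under an alternative, 263 kept their sign and their side of the threshold. Except under the centrings, the log2 change was the deposited one and its sign could not turn, so much of this agreement was fixed in advance. Given the deposited values, adjusted p limits of 0.01 and 0.1 could not change the number of called members. Nor could a log2 change of at least 1 or removal of Sdhaf1 to Sdhaf4. The call of Atpif1 was lost at an adjusted p under 0.01 and at a log2 change of at least 1. Removal of the assembly factors, removal of Sdhd and placing Ndufa4 in complex I were chosen after seeing the data. No paired analysis was possible because each gene has a single mean over both sides. Other count tests, other normalizations and fits that leave out a region, which need region values, were not run. The distal side, with fewer counts, limits the depth.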

Other observations

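Relations of the log2 change were described across the 49 members with a mean of at least 10 and a transcript length. Spearman's rho was 0.11 with GC content (Pearson's r 0.08) and 0.10 with transcript length (r 0.06). Whether these differ from 0 was not tested. Over 3749 genes at the same depth rho was 0.007 for GC content and -0.13 for length. These values describe genes within the same pair of libraries, which are not independent replicates. Near-identical copies were found for 13 of the 84 members. Of these, 7 reached a mean of 10, and the median over them was 0.12 on the log2 scale, beside 0.07 for 43 members without a copy. A gene on the other strand overlapped 32 of the 84 members.

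Mterf3, which acts on mitochondrial ribosomes, and Slc25a5, which exports ATP from mitochondria, were the members of their lists with an unadjusted p under 0.05. Mterf3 stood at 17.1 in distal and 8.72 in proximal and Slc25a5 at 124 and 95.8, and the authors' deposited table gives them adjusted p-values of 0.182 and 0.2. Dlat, a subunit of pyruvate dehydrogenase and the gene of the tricarboxylic acid cycle list with an unadjusted p under 0.05, lay the other way, at 9.23 in distal and 16.0 in proximal (adjusted p = 0.748 in the authors' deposited table). These 3 genes were named after their values were seen. Cox5b-ps, left out of the members as a pseudogene by its symbol, had 2 distal and 4 proximal counts.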
